A study of Mus musculus and Rattus norvegicus with 26 samples.

Results

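The genes described here are the zinc finger genes among the hosts of cytoplasmic intron-sequence retaining transcripts (CIRTs), the study's name for mRNAs in the cytoplasm with part of an intron still present. Cut dendrites hold no nucleus, but somas, BAT cells and cardiomyocytes do, and in those lists unspliced nuclear RNA and cytoplasmic RNA cannot be told apart. Members were chosen by gene symbol alone: Zfp followed by a digit, Zbtb, Zkscan or Zscan, with 2 genes (Zfp423 and Zbtb49) left out. The rule found 245 of the 13695 genes of 6 lists, 231 in the mouse lists and 47 in the rat lists, with 986 of 112345 contigs in 759 of 85860 introns counted per list. A contig is a stretch of intron in which the authors joined uniquely mapped reads lying up to 500 bp apart, so it can hold bases with no read.

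The labels give 26 libraries of amplified RNA for the 6 lists, each list pooling a group. The labels and the study's text differ in the number of BAT cells and of cardiomyocytes, so which libraries entered those lists is not known. Neurons were from embryonic day 18 hippocampus grown in culture, from C57BL/6 mice (3 dendrite and 3 soma libraries) and Sprague-Dawley rats (2 dendrite and 3 soma libraries), and each dendrite library held many dendrites cut by hand. Brown adipose tissue (BAT) cells, 6 libraries by the labels, were single cells of CD-1 mice at day 17.5, picked by shape. Cardiomyocytes, 9 libraries by the labels, were single sorted cells of hemizygous transgenic C57BL/6 mice at day 14.5, which carried the Fucci cell cycle reporter mAG-hGem under a CMV promoter. No group was treated with an agent, and all were amplified in 3 rounds from a poly(T) primer. Each group is 1 pooled list, so there are no replicates and no test between groups. The intervals given are 95% counting intervals and cover counting error only, since reads amplified from 1 molecule are not independent. Contigs of 1 gene, or of 1 intron in several lists, are not independent either, and the intervals leave this out. Within a list, fewer cells with a retained intron and less of it per cell cannot be told apart.

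Classical zinc fingers of the C2H2 type are short protein folds in which a pair of cysteines and a pair of histidines hold a zinc ion, and arrays of them read DNA sequence. In the mouse genome many of these genes lie in clusters and carry a KRAB domain, which recruits the co-repressor Trim28 to silence retroelements. Zbtb proteins pair fingers with a BTB domain, and Zkscan and Zscan proteins carry a SCAN domain, both used for protein contacts.

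The sequences of 4 introns are shown first because each was the most read member intron of a mouse list. The bases are from the mm9 mouse genome, read 5′ to 3′ on the gene's own strand. In intron 4 of Zfp661, the most read member intron of mouse dendrites, capitals mark a run of 20 thymines at the start of the contig, which is a run of adenines on the other strand. For intron 3 of Zfp560, the most read of cardiomyocytes, the contig shown is that of dendrites, where the intron held 91 reads. Capitals mark the 54 bases that lay in the contigs of all 4 mouse lists, and the soma contig rests on 2 reads. In intron 7 of Zfp462, the most read of mouse somas, capitals mark 12 adenines at the end of a dendrite contig that lay inside a soma contig. In intron 4 of Zfp945, the most read of BAT cells, 190 of the contig's 1835 bases are shown around a run of 10 adenines, in capitals.
Zfp661 intron 4, chr2:127404456-127404747, minus strand: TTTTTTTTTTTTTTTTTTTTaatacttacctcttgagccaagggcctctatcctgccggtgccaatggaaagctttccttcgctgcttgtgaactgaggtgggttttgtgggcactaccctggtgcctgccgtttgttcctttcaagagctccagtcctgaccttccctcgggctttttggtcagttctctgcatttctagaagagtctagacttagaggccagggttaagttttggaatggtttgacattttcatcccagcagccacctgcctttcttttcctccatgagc
Zfp560 intron 3, chr9:20156975-20157196, minus strand: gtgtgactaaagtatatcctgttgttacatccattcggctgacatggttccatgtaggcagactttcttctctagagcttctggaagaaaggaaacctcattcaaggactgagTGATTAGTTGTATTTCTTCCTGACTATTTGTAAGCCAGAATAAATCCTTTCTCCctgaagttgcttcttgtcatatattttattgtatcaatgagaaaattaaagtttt
Zfp462 intron 7, chr4:55040419-55040619, plus strand: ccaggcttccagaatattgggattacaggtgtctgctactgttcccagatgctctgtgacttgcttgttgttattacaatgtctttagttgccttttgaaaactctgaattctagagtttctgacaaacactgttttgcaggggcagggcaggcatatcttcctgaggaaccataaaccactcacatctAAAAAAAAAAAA
Zfp945 intron 4, chr17:22995351-22995540, minus strand: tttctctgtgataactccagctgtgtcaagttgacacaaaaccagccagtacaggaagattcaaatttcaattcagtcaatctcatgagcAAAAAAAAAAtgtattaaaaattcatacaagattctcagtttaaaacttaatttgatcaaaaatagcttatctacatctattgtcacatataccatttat

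The label was checked against the encoded proteins. Of the 231 mouse members, 230 had an annotated coding sequence, and 215 of these (93.5%) held at least 2 matches to the C2H2 pattern, a pair of cysteines and a pair of histidines at the classical spacing. The median was 10 matches and the highest 37, in Zfp142. The 9 members with none were Zbtb8os, Zfp185, Zfp259, Zfp330, Zfp365, Zfp36l1, Zfp503, Zfp707 and Zfp839. Several of these have other known roles: Zbtb8os is archease, a cofactor of the tRNA ligase, and Zfp36l1 binds AU-rich mRNA through CCCH fingers, of which 2 matched here. The set is thus mostly, not wholly, C2H2 factors. In the rat lists 16 genes with Znf symbols fall outside the rule, against 0 in the mouse lists, so rat counts of the family are incomplete.

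The lists held 1007530 (rat dendrite) to 17858440 (BAT) intronic reads. Marker genes followed the labels in part. Summed neuron markers were at 8021 RPM (reads per 1000000 listed intronic reads of the same list) in mouse somas and 1445 in mouse dendrites, and 5 of 6 cardiomyocyte markers were in the cardiomyocyte list at 24306 RPM, beside 2 of 7 neuron markers at 373 and 3 of 6 brown adipocyte markers at 287. All 4 astrocyte markers were listed in mouse dendrites, at 966 RPM against 5.39 in mouse somas. In the BAT list 5 of 6 brown adipocyte markers stood at 3431 RPM, beside 5 of 6 cardiomyocyte markers at 2779 and 6 of 7 neuron markers at 1257. Mouse dendrites also held 4 of 6 cardiomyocyte markers at 514 RPM (somas 10.2) and 3 of 6 brown adipocyte markers at 117. Rat dendrites held 2 of 7 neuron markers at 1342 RPM, with an oligodendrocyte marker, Mog, at 138, and rat somas held 4 of 7 neuron markers at 7553. The part of these other cell types in the values below was not tested.

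Zinc finger genes made up 133 of 8607 genes in mouse dendrites (1.55%, 1.31 to 1.83), 99 of 5895 in mouse somas (1.68%, 1.38 to 2.04), 164 of 10220 in BAT cells (1.60%, 1.38 to 1.87) and 80 of 6205 in cardiomyocytes (1.29%, 1.04 to 1.60). The intervals of the 4 mouse shares overlapped. Rat dendrites held 42 members of 4485 genes (0.936%) and rat somas 24 of 3393 (0.707%). Of 422 annotated multi-exon mouse genes with such names, 230 (54.5%) were in a mouse list, against 63.3% of 19421 coding genes of any name. The Zfp symbols gave 116, 89, 150 and 70 genes in mouse dendrites, mouse somas, BAT cells and cardiomyocytes. Zbtb symbols gave 10, 4, 8 and 6, Zkscan 4, 4, 4 and 3, and Zscan 3, 2, 2 and 1. Chromosome 7 held 45 of the 231 mouse members, chromosome 17 held 26 and chromosome 13 held 23.

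Reads on member introns were 0.957% of listed reads in mouse dendrites, 1.08% in mouse somas, 0.512% in BAT cells, 0.843% in cardiomyocytes, 0.72% in rat dendrites and 0.4% in rat somas. In their own analysis the authors set a length limit of 400 nt for contigs of somas, BAT cells and cardiomyocytes, which the deposited lists do not carry, and this limit gave a rat soma share of 0.187%. The median member intron held 35 reads in mouse dendrites (all introns 24), 14 in mouse somas (22), 30 in BAT cells (29), 53 in cardiomyocytes (53), 19.5 in rat dendrites (14) and 88.5 in rat somas (24). Member introns were thus above the list's median in mouse dendrites and both rat lists, below it in mouse somas and within 1 read of it in BAT cells and cardiomyocytes. The rat soma median rests on 28 introns. For introns of at least 4 reads the medians were 50 in mouse dendrites (all introns 42), 28 in mouse somas (41), 51 in BAT cells (50), 184 in cardiomyocytes (107), 26 in rat dendrites (29) and 184 in rat somas (54), so cardiomyocyte members then lay above the list and rat dendrite members below it. For introns with 1 contig they were 21.5 (16), 11 (15), 18 (18), 42 (35), 19.5 (12) and 28 (18) in the same order. The 5 most read introns held 37.0% (BAT) to 69.7% (rat soma) of all member reads.

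**Figure D1:**
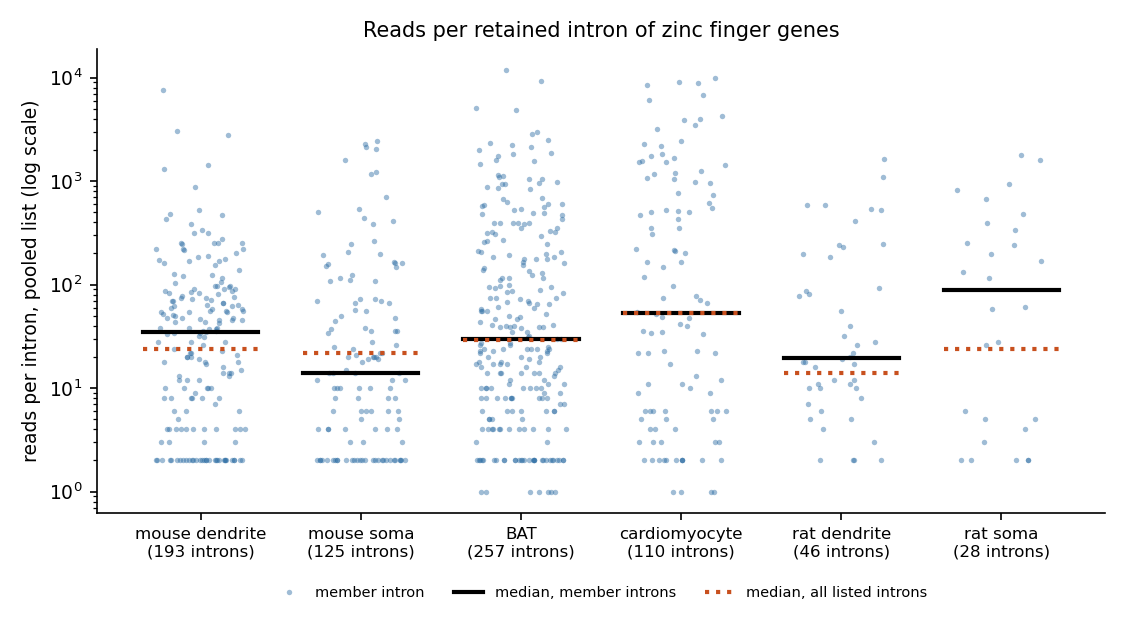
Each point is 1 member intron in 1 pooled list and the y axis is its reads on a log scale; black lines are member medians and dotted lines the medians of all listed introns. Introns spread from 1 or 2 reads to 11750 in BAT cells, and the member median lies below that of all introns only in mouse somas (14 against 22).

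The most read member intron of each list came from a different gene. In mouse dendrites Zfp661 intron 4 held 7550 reads in 1 contig of 292 nt, which was 25.6% of all member reads there and rank 19 among all introns of the list. In BAT cells the same intron held 4 reads, in another contig, and it was not listed in mouse somas or cardiomyocytes. Zfp938 intron 3 (3026 reads), Zfp868 intron 4 (2787 reads), Zfp804a intron 1 (1419 reads over 12 contigs) and Zfp280c intron 2 (1306 reads) followed in dendrites. Zfp804a is known as a schizophrenia risk gene. The Zfp868 contig of 729 nt covered most of an intron of 938 nt.

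In mouse somas the most read were Zfp462 intron 7 (2463 reads), Zfp454 intron 5 (2303 reads), Zfp512 intron 2 (2125 reads), Zfp938 intron 3 (2064 reads) and Zfp398 intron 4 (1606 reads). Zfp462 is a chromatin regulator of neural development. In BAT cells they were Zfp945 intron 4 (11750 reads), Zfp560 intron 5 (9176 reads) and intron 3 (5116 reads), Zfp61 intron 5 (4815 reads) and Zfp273 intron 3 (2966 reads). In cardiomyocytes they were Zfp560 intron 3 (9856 reads), Zfp157 intron 3 (9062 reads), Zfp608 intron 2 (8823 reads over 8 contigs), Zfp236 intron 3 (8443 reads) and Zfp938 intron 3 (6830 reads). Zfp938 intron 3 was the only member intron among the 5 most read of more than 2 mouse lists.

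In rat dendrites Zbtb11 intron 5 held 1619 reads in 2 contigs, followed by Zfp385b intron 1 (1101 reads), Zfp259 intron 13 (591 reads), Zfp148 intron 7 (582 reads) and Zfp384 intron 6 (542 reads). Zfp259 is the protein Zpr1, which is not a C2H2 factor. In rat somas Zbtb41 intron 1 held 1800 reads, Zfp385b intron 4 held 1608, Zfp799 intron 1 held 940, Zfp192 intron 3 held 822 and Zfp90 intron 2 held 667. Zfp385b was thus high in both rat lists through different introns: intron 4 was not listed in rat dendrites, and intron 1 held 58 reads in rat somas.

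Of 231 mouse members, 92 (39.8%) were in 1 mouse list, 66 in 2, 40 in 3 and 33 (14.3%) in all 4. Over all 12467 mouse genes the shares were 25.7% in 1 list and 24.6% in all 4. Counted by intron the members did not stand lower: 175 of 416 member introns (42.1%) were in at least 2 mouse lists against 39.5% of all introns, and 25 (6.01%) were in all 4 against 3.70%. These counts carry no test.

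Zfp938 intron 3 held 3026 reads in dendrites, 2064 in somas, 2149 in BAT cells and 6830 in cardiomyocytes. Its contig began at the first base of the intron in every list. It covered 95 nt in dendrites and in BAT cells, with the same ends, 269 nt in somas and 462 nt in cardiomyocytes. An annotated isoform of the nonsense-mediated decay class has an exon that runs on into this intron to its base 86, with a stop codon at bases 2 to 4. Zfp560 intron 3 likewise began at the exon edge in dendrites (91 reads), BAT cells (5116 reads) and cardiomyocytes (9856 reads), and somas held 2 reads. Its first 230 bases belong to an exon of an annotated retained-intron transcript, and the 54 bases in capitals above are part of it.

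Zkscan3, a SCAN protein known as a repressor of autophagy genes, showed patches at like positions in its intron 5. The intron held 32 reads in dendrites, 158 in somas, 1141 in BAT cells and 1838 in cardiomyocytes. Somas and cardiomyocytes had contigs at both patches, dendrites at the upstream one, and BAT cells at the downstream one and at a place of their own. All 7 contigs lay mostly or wholly in annotated exons of other isoforms. Zfp462 intron 7 is 26579 nt long, and the contigs of dendrites (526 reads) and somas (2463 reads) overlapped at 2 places in it, while those of BAT cells (8 reads) lay elsewhere. Across the members that shared an intron between 2 lists, contigs overlapped in 35 of 59 introns for dendrites and somas (59.3%, all introns 58.0%), 43 of 70 for BAT cells and cardiomyocytes (61.4%, all 65.3%), 33 of 69 for somas and BAT cells (47.8%, all 52.4%) and 26 of 42 for somas and cardiomyocytes (61.9%, all 59.8%). For dendrites the counts were 42 of 95 with BAT cells (44.2%, all 44.1%) and 23 of 53 with cardiomyocytes (43.4%, all 44.9%).

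**Figure D2:**
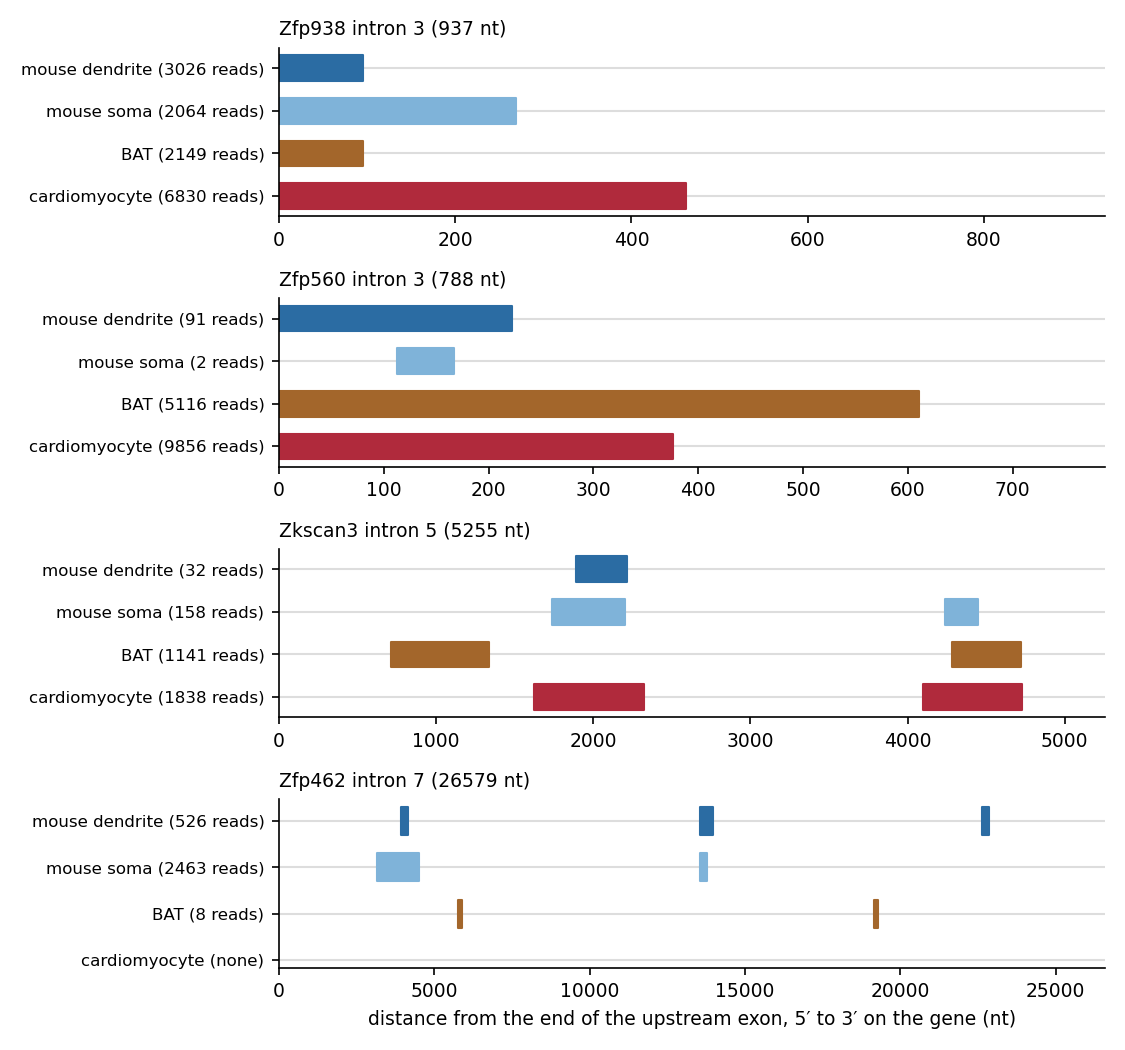
Contigs of 4 member introns in the 4 mouse lists, as distance in nt from the end of the upstream exon, with the intron's reads in each list. Zfp938 contigs all start at the exon edge, and those of Zfp462 in dendrites and somas overlap at 2 places.

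Of the 33 genes in all 4 mouse lists, the 6 with the highest geometric mean of RPM were Zfp938, Zfp280d, Zfp280c, Zfp608, Zbtb11 and Zfp346. Zfp938 stood at 1012 RPM in dendrites, 1125 in somas, 122 in BAT cells and 566 in cardiomyocytes. Zfp280d stood at 137, 74.9, 214 and 699 in the same order, and Zfp280c at 451, 293, 71.1 and 92.3. Zfp280d was highest in cardiomyocytes and its relative Zfp280c in dendrites. Zfp608 stood at 14.3, 739, 33.4 and 727, and Zfp346, which binds double-stranded RNA, at 55.7, 64.7, 63.4 and 456. Zbtb11 was the most even of the 33, at 128, 107, 130 and 62.9, a highest over lowest ratio of 2.07. For the 33 genes the median of that ratio was 51.9 (all genes 49.0), and 12 passed 100-fold (36.4%, all genes 36.6%), near the background. The lowest list of 11 of the 12 held 1 to 22 reads, and that of Zfp512 held 58. Cardiomyocytes held the highest value for 15 genes (45.5%, all genes 25.7%), dendrites for 7 (21.2%, all 27.6%), BAT cells for 6 (18.2%, all 22.9%) and somas for 5 (15.2%, all 23.8%), which carries no test.

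**Figure D3:**
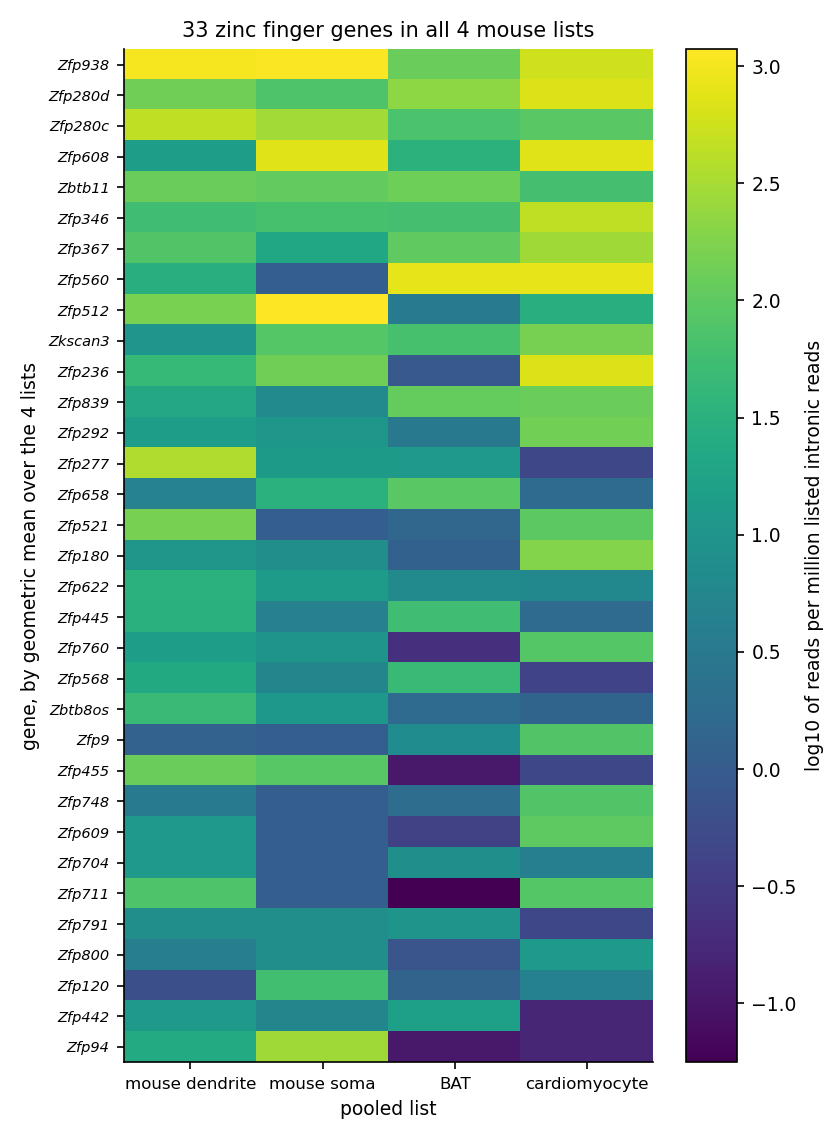
Rows are the 33 zinc finger genes in all 4 mouse lists, columns the pooled lists, and colour the log10 of RPM. Zfp938 is at the top, and the brightest cell of a row moves between lists from gene to gene, with cardiomyocytes brightest for 15.

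Dendrites and somas of mouse neurons were compared to ask which genes keep introns on either side. Of 173 members in either list, 59 were in both (34.1%, 27.5 to 41.4, all genes 48.5%), 74 in dendrites alone and 40 in somas alone. Of the dendrite members 44.4% were also in somas (all genes 55.1%), and of the soma members 59.6% were in dendrites (all genes 80.4%). The 74 had a median of 29.5 reads and the 59 a median of 76 in dendrites. Of the 59, 17 were at least 4-fold higher in dendrites (28.8%, 18.8 to 41.4, all genes 33.2%) and 16 at least 4-fold lower (27.1%, 17.4 to 39.6, all genes 24.9%), both near the background. With at least 32 reads in both lists 21 genes remained, of which 0 were 4-fold higher in dendrites (all genes 15.6% under the same limit) and 8 were lower (all genes 21.7%).

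Zfp608 held 44 reads in dendrites and 1372 in somas, 51.9-fold lower in dendrites in RPM (38.4 to 71.7). In somas 1 of the 5 contigs of its intron 2, which held 1164 of these reads, overlapped an exon of Gm17270 on the other strand. Zfp248 held 43 and 1231 reads (47.6-fold, 35.1 to 66.1) and Zfp94 76 and 539 reads (11.8-fold, 9.26 to 15.2). These 3 were furthest toward somas among the 21. Toward dendrites the largest were Zfp367, with 245 and 39 reads (3.78-fold, 2.69 to 5.44), Zfp804a with 1419 and 385 (2.22-fold, 1.98 to 2.49) and Zfp280d with 422 and 139 (1.83-fold, 1.5 to 2.23). For Zfp804a, intron 1 carried all reads in both lists.

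In rat, 19 of 47 members were in both lists (40.4%, 27.6 to 54.7, all genes 37.9%), 23 in dendrites alone and 5 in somas alone. Of the dendrite members 45.2% were also in somas (all genes 48.3%), and of the soma members 79.2% were in dendrites (all genes 63.8%). Of the 19, 8 were at least 4-fold higher in dendrites (42.1%, all genes 35.7%) and 4 lower (21.1%, all genes 24.6%). Scaling each list to its median gene gave 6 higher (31.6%, all genes 27.5%) and 8 lower (42.1%, all genes 30.4%). The higher share of the called members was then 42.9% in place of 66.7%, and that of all called genes 47.5% in place of 59.2%. With at least 32 reads in both lists 6 members remained, 1 higher (all genes 22.9%) and 0 lower (all genes 20%). Zfp451, a SUMO ligase, held 526 reads in rat dendrites and 169 in rat somas, 6.47-fold higher in dendrites (5.43 to 7.74). Its dendrite reads lay in introns 2 and 4 and its soma reads in intron 11. Zfp148 (582 and 403 reads) was 3.00-fold higher and Zfp180 (77 and 61 reads) 2.62-fold higher. Zfp90, with 87 and 667 reads, was 3.69-fold lower in dendrites (2.95 to 4.67), and Zfp280d, with 50 and 251, was 2.41-fold lower (1.78 to 3.34). Reads of Zfp280d lay in introns 15 and 16 in dendrites and in intron 10 in somas. For Zfp451 and Zfp280d the rat ratio thus compares different introns.

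Summed over all listed introns of the gene, Zfp451 and Zfp280d lay the other way in mouse. Zfp451 stood at 168 RPM in mouse dendrites and 338 in mouse somas, and Zfp280d at 137 and 74.9. Between species, 22 of 153 members in either dendrite list were in both by symbol (14.4%, 9.69 to 20.8, all genes 26.7%), and 6 of 117 for somas (5.13%, 2.37 to 10.7, all genes 23.6%). Znf symbols in rat can lower these counts, and by how much was not tested. The 6 soma genes were Zbtb40, Zfp148, Zfp180, Zfp236, Zfp280d and Zfp451. In dendrites Zbtb11 held 394 reads in mouse and 1619 in rat, Zfp451 520 and 526, Zfp385b 188 and 1101, and Zfp868 2787 and 26.

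BAT cells and cardiomyocytes are 2 non-neuronal cell types. Of 181 members in either, 63 were in both (34.8%, 28.2 to 42.0, all genes 49.5%), 101 in BAT cells alone and 17 in cardiomyocytes alone. Of the BAT members 38.4% were also in cardiomyocytes (all genes 53.2%), and of the cardiomyocyte members 78.8% were in BAT cells (all genes 87.7%). The BAT list is also the longer for all genes. Of the 63, 19 were at least 4-fold higher in BAT cells (30.2%, 20.2 to 42.4, all genes 34.3%) and 22 lower (34.9%, 24.3 to 47.2, all genes 28.3%). Of 26 members with at least 32 reads in both, 2 were higher in BAT cells (all genes 21.0%) and 11 lower (all genes 31.1%). Zfp157 held 90 reads in BAT cells and 9097 in cardiomyocytes, 148-fold lower in BAT cells in RPM (120 to 184). Zfp292 (56 and 1746 reads) was 45.6-fold lower and Zfp748 (35 and 982 reads) 41.1-fold lower. In the other direction Zfp935, with 2515 and 62 reads, was 27.7-fold higher in BAT cells (21.5 to 36.3), Zbtb10 (2531 and 164 reads) 10.5-fold and Zbtb20 (688 and 167 reads) 2.81-fold. Contigs of Zfp157 intron 3 did not overlap between these lists, and 1 of the 2 in cardiomyocytes, 1051 nt long, began at the upstream exon.

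Mouse somas were also set against each of the non-neuronal cell types. Of 191 members in somas or BAT cells, 72 were in both (37.7%, 31.1 to 44.7, all genes 46.0%), and 25 of these were at least 4-fold higher in somas (34.7%, 24.8 to 46.2, all genes 33.7%) and 15 lower (20.8%, 13.1 to 31.6, all genes 26.7%). Of 19 members with at least 32 reads in both, 8 were higher in somas (all genes 37.4%) and 1 lower (all genes 14.2%). Zfp512 held 2191 reads in somas and 58 in BAT cells, 364-fold higher in RPM (280 to 480), Zfp454 held 2303 and 88 (252-fold, 204 to 315) and Zfp248 1231 and 136 (87.1-fold, 72.9 to 105). Lower in somas were Zfp367 (39 and 1823 reads, 4.86-fold), Zfp280d (139 and 3817 reads, 2.85-fold) and Zfp658 (61 and 1632 reads, 2.78-fold). Raw reads and RPM differ here because the BAT list is far deeper.

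Of 135 members in somas or cardiomyocytes, 44 were in both (32.6%, 25.3 to 40.9, all genes 44.0%), with 16 at least 4-fold higher in somas (36.4%, 23.8 to 51.1, all genes 37.0%) and 16 lower (36.4%, all genes 26.2%). Of 12 members with at least 32 reads in both, 2 were higher in somas (all genes 30.4%) and 4 lower (all genes 18.0%). Zfp512 held 351 reads in cardiomyocytes and was 41.0-fold higher in somas (36.7 to 46.1), and Zfp120 (108 and 54 reads) was 13.2-fold and Zfp280c (544 and 1126 reads) 3.18-fold higher. Zfp367 (39 and 3456 reads) was 13.5-fold lower in somas, Zfp280d (139 and 8524 reads) 9.33-fold and Zfp346 (120 and 5567 reads) 7.05-fold. Among members with at least 32 reads in both lists, Zfp512 had the highest soma ratio against both cell types, and Zfp367 and Zfp280d the lowest. Below that limit other members lay further out, among them Zfp763, Zfp94 and Zfp560, each with 1 or 2 reads in 1 list of a pair. Others were Zfp455 toward somas, with 2 reads in BAT cells and 6 in cardiomyocytes, and Zfp839 away from them, with 12 reads in somas. Both comparisons share the soma list.

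**Figure D4:**
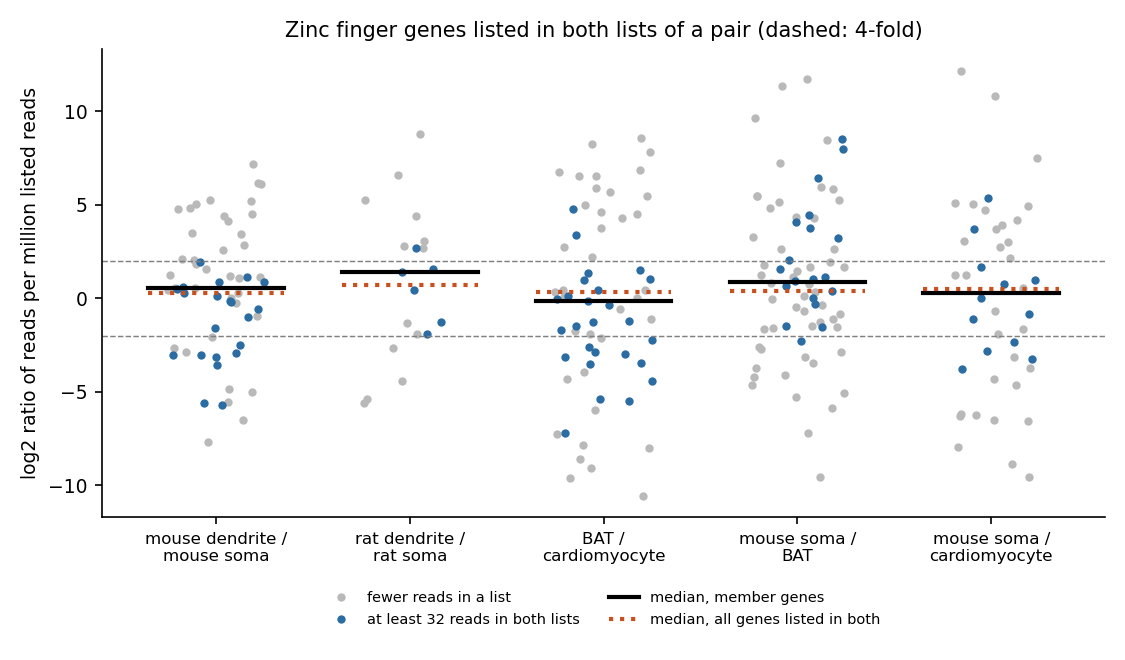
Each point is a zinc finger gene listed in both lists of a pair; the y axis is the log2 ratio of RPM, dashed lines are 4-fold, black lines member medians and dotted lines the medians of all genes. The member median is above that of all genes in mouse dendrite against soma (0.55 against 0.27), rat dendrite against soma (1.39 against 0.73) and soma against BAT (0.88 against 0.38) and below it in the other pairs, and points with fewer than 32 reads in a list (grey) lie furthest out.

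In the 4 pairs of mouse lists the share of members in both lay below that of all genes, with an interval that ended below it. Member transcripts had a median of 5 annotated introns against 10 or 11 for all listed transcripts, and the part of intron number in the lower shares was not tested. Among genes of 2 to 8 introns, a limit set after the data were seen, members in both made up 31.3% (24.0 to 39.7) for dendrites and somas against 35.5% of all such genes, and 32.8% (25.4 to 41.3) against 41.2% for BAT cells and cardiomyocytes. For somas and BAT cells the shares were 37.3% (29.8 to 45.5) against 33.8%, and for somas and cardiomyocytes 31.7% (23.4 to 41.3) against 34.1%. All 4 intervals then held the share of all such genes. With introns of at least 32 reads, a planned limit, and genes of any intron number, members in both stayed below all genes. The shares were 21.2% against 31.5% for dendrites and somas and 21.6% against 38.9% for BAT cells and cardiomyocytes. For somas they were 17.0% against 31.0% with BAT cells and 15.8% against 30.1% with cardiomyocytes. Among members in both mouse lists of a pair, 47 of 59 (79.7%, all genes 73.1%) shared an intron between dendrites and somas and 55 of 63 (87.3%, all genes 79.8%) between BAT cells and cardiomyocytes. Between somas and BAT cells 57 of 72 did (79.2%, all genes 74.7%), and between somas and cardiomyocytes 37 of 44 (84.1%, all genes 66.5%). These shares carry no test.

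**Figure D5:**
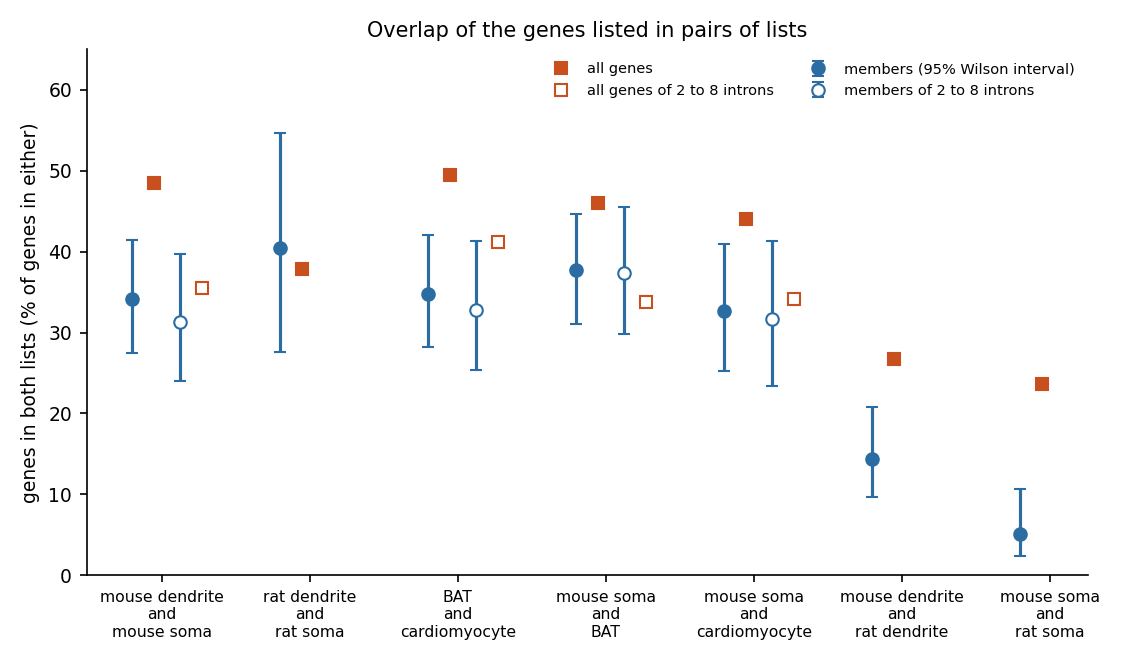
Genes in both lists as a percent of genes in either, for 7 pairs of lists; circles are members with 95% Wilson intervals, squares all genes, and open symbols genes of 2 to 8 introns in the mouse pairs. Filled circles lie below filled squares in 6 of 7 pairs, and the intervals of the open circles reach the open squares.

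Contigs were set against the annotated introns of the 216 of 237 member transcripts that could be matched. In mouse dendrites 179 of 795 introns of listed members held a contig (22.5%, 19.7 to 25.5), against 15.8% over all transcripts. The shares were 20.5% against 11.9% in somas, 24.8% against 21.8% in BAT cells and 20.6% against 14.7% in cardiomyocytes. Every listed transcript has at least 1 contig, so a transcript of few introns has a high share by construction. Among transcripts of 2 to 8 introns the shares were 26.0% against 26.6% in dendrites, 25.8% against 24.2% in somas, 30.3% against 35.1% in BAT cells and 27.1% against 29.2% in cardiomyocytes. The share over all transcripts then lay outside the members' interval only in BAT cells (26.5 to 34.4).

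Introns before the coding sequence held few contigs: 2 of 92 in dendrites, 1 of 63 in somas, 3 of 119 in BAT cells and 0 of 53 in cardiomyocytes, with an interval up to 6.76%. Over all transcripts the shares were also low, 2.50% to 6.24%, and whether the lists were limited to introns of the coding sequence is not given in the sources used here. The last intron of a member transcript held a contig in 30.9% of dendrite, 31.6% of soma, 33.8% of BAT and 28.4% of cardiomyocyte transcripts, and the first in 16.9%, 16.8%, 18.5% and 18.9%. Over all transcripts the last introns stood at 17.6%, 18.0%, 30.3% and 26.3% and the first at 19.7%, 15.6%, 23.6% and 16.1%. By length, member introns over 3000 and up to 10000 nt held a contig most often in dendrites (43.4%) and BAT cells (46.6%), and those over 10000 and up to 30000 nt in somas (50%) and cardiomyocytes (47.4%). Over all introns the shares in those bins were 27.9%, 33.5%, 25.7% and 25.2%, and the bin over 10000 and up to 30000 nt was the highest in each list. In introns of at most 300 nt the share was 1.19% in dendrites (all introns 1.74%), 5.97% in somas (2.59%), 8.80% in BAT cells (9.71%) and 3.64% in cardiomyocytes (7.22%). As above, a listed transcript of few introns has a high share by construction, and member transcripts have fewer introns. The part of intron number in these shares by position and length was not tested.

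The finger array is often encoded in 1 exon: 122 of 183 member transcripts with at least 2 patterns (66.7%) had no intron between the first and the last. Of coding introns upstream of the first finger, 30.7% (26.1 to 35.8) held a dendrite contig, 29.0% (23.8 to 34.8) a soma, 35.3% (30.7 to 40.2) a BAT and 29.2% (23.4 to 35.7) a cardiomyocyte contig. Of introns between fingers, 20.5% (15.4 to 26.8), 14.8% (9.44 to 22.4), 18.6% (14 to 24.3) and 14.5% (9.38 to 21.8) did. Within the transcripts that have both kinds the gap was smaller: 22.2% (15.4 to 30.9) against 20.4% (14.5 to 28) in dendrites, 22.0% against 13.4% in somas, 24.8% (18.2 to 32.9) against 15.3% (10.5 to 21.7) in BAT cells and 20% against 13.5% in cardiomyocytes. The intervals overlapped in all 4 lists.

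Member contigs met an exon less often than others in the non-neuronal lists. In BAT cells 66 of 339 (19.5%, 15.6 to 24.0) began or ended at an exon against 27.8% of all contigs, and in cardiomyocytes 23 of 121 (19.0%, 13 to 26.9) against 31.8%. The introns with member contigs were longer than those of all contigs in these lists, with medians of 3312 against 2744 nt in BAT cells and 4538 against 2762 nt in cardiomyocytes, against 3859 and 3916 nt in dendrites and 4012 and 3813 nt in somas. The part of intron length in the difference was not tested. In dendrites the share was 11.0% against 8.20% and in somas 10.3% against 13.3%, both within the interval. Over the 4 lists 17 of 842 member contigs (2.02%, 1.26 to 3.21, all contigs 5.13%) spanned a whole intron, among them the 207 nt of Zfp938 intron 2 in every mouse list. The contig overlapped an annotated exon of the same strand in 66 of 900 cases (7.33%, 5.81 to 9.22, all contigs 6.93%), and one of the other strand in 21 (2.33%, 1.53 to 3.54, all contigs 0.951%). The 21 lay in Zfp608, Zfp106, Zfp839, Zfp68, Zfp273, Zfp507, Zfp52, Zfp335 and Zfp593. Counts over the 4 lists take an intron once per list, and several contigs can come from 1 gene. The contigs are thus not independent, and the intervals over the 4 lists leave this out. The libraries keep no strand, so for these introns reads of the gene and of the transcript opposite cannot be told apart.

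Adenine tracts near the contigs were counted because amplification started from a poly(T) primer. A run of at least 10 adenines within 300 nt downstream was found for 18 of 254 member contigs in dendrites (7.09%, 4.53 to 10.9, all contigs 8.08%), 24 of 152 in somas (15.8%, 10.8 to 22.4, all 18.5%), 22 of 365 in BAT cells (6.03%, 4.01 to 8.96, all 7.34%) and 13 of 129 in cardiomyocytes (10.1%, 5.98 to 16.5, all 9.42%). Upstream the shares were 3.15%, 3.29%, 2.74% and 1.55%. Adenine runs were thus found downstream more often than upstream in each mouse list, and over all contigs of the 4 lists at 9.36% and 2.61%. A run of thymines upstream, like that at the start of the Zfp661 contig but outside the contig, is an adenine run downstream on the other strand, which these libraries do not tell apart. Such runs stood beside 14.6%, 9.87%, 10.1% and 11.6% of member contigs in the 4 lists, and over the 4 lists beside 11.6% (9.63 to 13.8) against 10% of all contigs. The tracts printed here, with the run in capitals, are an example from each list, downstream of the contig of a single-contig member intron. They need not belong to the most read intron with such a tract. The run starts 7 nt after the contig of Zfp451 intron 6 in dendrites (156 reads), 46 nt after that of Zfp398 intron 4 in somas (1606 reads), 5 nt after that of Zfp777 intron 5 in BAT cells (93 reads) and 8 nt after that of Zfp286 intron 3 in cardiomyocytes (6045 reads).
Zfp451 intron 6, chr1:33839310-33839346, minus strand: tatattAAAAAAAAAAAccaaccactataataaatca
Zfp398 intron 4, chr6:47814003-47814052, plus strand: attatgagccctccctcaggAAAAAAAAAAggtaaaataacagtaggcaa
Zfp777 intron 5, chr6:47976748-47976789, minus strand: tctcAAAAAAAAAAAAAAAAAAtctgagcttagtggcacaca
Zfp286 intron 3, chr11:62598493-62598532, minus strand: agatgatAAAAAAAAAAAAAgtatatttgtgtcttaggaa

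Genes with known roles in neural development were listed in 7 of 10 symbols, 6 of them in BAT cells, 4 each in mouse dendrites and mouse somas, 2 each in cardiomyocytes and rat dendrites and 1 in rat somas. Of all annotated genes 52.0% were listed in BAT cells, 43.9% in mouse dendrites, 30.1% in mouse somas and 31.6% in cardiomyocytes. For so few genes the mouse counts are near this background. Because 2 of the 10 symbols are 1 gene, as given below, the shares by gene are slightly higher. No such share was available for rat. Zbtb20, needed for hippocampal CA1 identity, was in neither mouse neuron list. It held 688 reads in BAT cells, 167 in cardiomyocytes, 11 in rat dendrites and 484 in rat somas. Zfp462 stood at 1407 RPM in mouse somas, 173 in dendrites and 83.4 in BAT cells. Zfp804a stood at 460 in dendrites, 207 in somas and 71.0 in BAT cells, and was not listed in cardiomyocytes. Zfp365 held 122 reads in dendrites, 41 in BAT cells and 2 in somas, Zfp335 held 2 in BAT cells, and Zbtb16 (PLZF) held 10 in rat dendrites. Zfp521, the other listed gene, is described with the adipocyte regulators. Zfp238 and Zbtb18, alternative symbols of 1 gene, and Zfp536 were in no list.

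Of 5 adipocyte regulators 3 were listed, 1 of them in BAT cells, where 52.0% of all annotated genes and 38.6% of those with zinc finger symbols were listed. Zfp516, an activator of the thermogenic gene Ucp1, held 265 reads in mouse somas and was in no other list. Zfp521, which represses adipocyte commitment, held 27 reads in BAT cells (1.51 RPM), 474 in dendrites (154), 1176 in cardiomyocytes (96.4) and 2 in somas, all in intron 4. Zbtb16 held 10 reads in rat dendrites, as above, and Zfp467 and Zfp217 were in no list. A mouse list held 63.3% of all annotated genes. Of 3 heart and muscle symbols, too few to compare with that share, Zfp260 and Zbtb17 were in no list, and Zfp106, an RNA-binding protein needed in muscle and motor neurons, was listed. It stood at 392 RPM in cardiomyocytes, 49.8 in BAT cells and 100 in dendrites, mostly in intron 5 in cardiomyocytes (4257 of 4782 reads), where the contig lay within an annotated exon of another isoform and opposite Gm17675.

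The methyl-CpG readers Zbtb33, Zbtb4 and Zbtb38 were in no list. Of 5 KRAB factors of imprinting and retroelement silencing, Zfp445, Zfp568 and Zfp932 were listed and Zfp57 and Zfp809 were not. A mouse list held 63.3% of all annotated genes and 54.5% of those with zinc finger symbols, and sets this small cannot be told apart from that background. Zfp445, which protects imprints, held 1004 reads in BAT cells, 95 in dendrites, 22 in cardiomyocytes, 12 in rat dendrites and 8 in mouse somas. Zfp568, a repressor of a placental Igf2 transcript, held 856, 72, 5 and 10 reads in BAT cells, dendrites, cardiomyocytes and somas. Both stood highest in RPM in BAT cells (56.2 and 47.9). Zfp932 held 78 reads, in cardiomyocytes alone, over the whole 185 nt of intron 2.

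Of 4 CCCH factors that bind AU-rich mRNA, Zfp36l1 held 49 reads in cardiomyocytes and Zfp36, Zfp36l2 and Zfp36l3 were in no list. Of 11 proteins known for RNA binding or for ubiquitin and SUMO transfer, 6 were listed, 5 of them in a mouse list, and Zfp598, Zfp638, Zfp385a, Zfp326 and Zfp294 were not. A mouse list held 63.3% of all annotated genes and 54.5% of those with zinc finger symbols. A count of 5 out of 11 is near that background, and 4 CCCH genes are too few to compare with it. Zfp451 was in 5 of 6 lists, at 168 RPM in mouse dendrites, 338 in mouse somas, 153 in BAT cells, 522 in rat dendrites and 80.7 in rat somas, and not in cardiomyocytes. Its intron 13 held 170, 69 and 2313 reads in dendrites, somas and BAT cells. In each of these lists a contig began at the upstream exon and lay within an annotated exon of another isoform, and dendrites had a second contig near the intron's end. Zfp207, a spindle assembly factor, held 23 reads in mouse dendrites, 6 in BAT cells, 9 in cardiomyocytes, 93 in rat dendrites and 28 in rat somas, and Zfp91, a ubiquitin ligase, 247 in rat dendrites alone.

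Of 16 listed Zbtb genes, 11 were in rat dendrites, 10 in mouse dendrites, 8 in BAT cells, 6 in cardiomyocytes, 5 in rat somas and 4 in mouse somas. Zbtb11 and Zbtb8os were in all 4 mouse lists. Zbtb10 held 2531 reads in BAT cells, 164 in cardiomyocytes and 8 in mouse somas. Zbtb25 held 2422 reads in cardiomyocytes, 4 in mouse dendrites, and 116 and 22 in somas and dendrites of rat, and Zbtb41 1800 in rat somas, 1783 in BAT cells, 98 in mouse dendrites and 21 in rat dendrites. Zbtb48, a telomere-binding factor, held 468 reads in BAT cells alone, and Zbtb24, mutated in the ICF immunodeficiency syndrome, 198 in rat dendrites and 2 each in mouse dendrites and BAT cells.

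Of the SCAN genes, Zkscan3 alone was in all 4 mouse lists. Zkscan2 held 1539 reads in cardiomyocytes, 327 in dendrites and 109 in somas, each mainly in another intron (4, 2 and 6). Zscan29 held 1653 reads in cardiomyocytes and 2 in dendrites, Zscan2 219 in dendrites, 23 in BAT cells and 4 in somas, and Zscan21 152 in somas alone. Zscan10, a factor of pluripotent stem cells, held 31 reads in dendrites and 23 in BAT cells, both in intron 5.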

How the data were processed

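The deposited lists give, per contig, a RefSeq transcript, gene, intron number, position, strand and the count of reads of that intron, 1 pooled list per group. The authors amplified RNA in 3 rounds, sequenced it without strand, aligned it to mm9 or rn4, kept uniquely mapped reads in introns, joined reads within 500 bp and removed introns with predicted genes, poly(A) sites, known noncoding RNA or junction reads alone. The deposited count values are raw read counts per intron, not normalized by the authors. Depth was 1007530 to 17858440 listed reads.

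Each count was used once per transcript and intron. Both positions in the files count from 0 with the last base included: 13178 of 95539 matched contigs then started on an intron's first base, 12029 ended on its last and 0 lay outside. RPM is reads per 1000000 listed reads of the same list. A gene was called at 4-fold between lists. Ratio intervals are exact and share intervals are Wilson, at 95%. Mouse transcripts were matched to GENCODE introns of the same build (12864 of 13156). C2H2 patterns were counted in GENCODE coding sequences, where RefSeq proteins had been planned. Paralogs of zinc finger genes can be near-identical, and the effect of unique mapping on their introns was not tested. The code for ratios and their intervals was run on simulated counts drawn independently. Such counts lack the shared origin of amplified reads, so the run cannot show how well the intervals hold here. Python 3.11.15, pandas 2.3.3 and scipy 1.17.1 were used.

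Members and lists were chosen with earlier results of these data known. Named genes are the 5 most read introns of each list, the 6 highest genes in all 4 mouse lists, the 3 largest ratios each way with at least 32 reads in both lists, and the members of the role lists. Others were named after their values were seen: the exon, strand, tract and zone examples, the members without C2H2 patterns, genes of extreme ratio under the read minimum, and the genes found in both species. Alternatives were a 400 nt limit, read minimums, other folds, scaling and tract lengths, and genes of 2 to 8 introns.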

Additional observations from a re-analysis of the deposited data

How the results depend on the processing

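Of 114 alternative values for 57 results, 53 moved by less than their margin and 61 by more. No paired analysis was possible because each group is 1 pooled list, and for the same reason no library could be left out. With introns of at least 32 reads, member genes fell to 81 in mouse dendrites, 39 in mouse somas, 92 in BAT cells, 49 in cardiomyocytes, 19 in rat dendrites and 15 in rat somas, and the last was also 15 with contigs of at most 400 nt. The same minimum gave median contig lengths of 307, 383, 332, 470 and 426 nt in the first 5 of these, and a minimum of 4 reads gave median reads of 50, 28 and 51 in mouse dendrites, mouse somas and BAT cells, and 184 in both cardiomyocytes and rat somas. Introns with 1 contig gave 18 in BAT cells, 21.5 in mouse dendrites and 28 in rat somas. Without the most read intron the members' share of reads was 0.714%, 0.951%, 0.447%, 0.763%, 0.560% and 0.314% in the 6 lists. Contigs of at most 400 nt gave 1.41% in mouse somas, 0.435% in BAT cells, 0.903% in cardiomyocytes and 0.187% in rat somas, and retained shares of 21.3% in BAT cells (all transcripts 17.1%) and 16.4% in cardiomyocytes (11.7%). That limit in all lists gave median lengths of 232, 233, 194, 207, 252 and 233 nt.

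With at least 32 reads in both lists, 0 members were 4-fold higher and 8 lower in mouse dendrites than somas, 1 and 0 in rat, 2 and 11 in BAT cells against cardiomyocytes, 8 and 1 in somas against BAT cells, and 2 and 4 in somas against cardiomyocytes, beside shares over all genes under that limit of 15.6% and 21.7%, 22.9% and 20%, 21.0% and 31.1%, 37.4% and 14.2%, and 30.4% and 18.0%. In rat 8 were lower at 2-fold (42.1%, all genes 32.3%) and 8 when scaled to the median gene (all genes 30.4%), and 23 were lower in somas than BAT cells at 2-fold (31.9%, all genes 35.6%). The share in both lists with at least 32 reads was 21.2% for mouse dendrites and somas (all genes 31.5%), 21.4% in rat (25.3%), 21.6% for BAT cells and cardiomyocytes (38.9%), 17.0% and 15.8% for somas with BAT cells (31.0%) and with cardiomyocytes (30.1%), and 6.38% for dendrites of both species (15.4%), with 50 of 52 genes in 1 soma list alone for the 2 species (in both 3.85%, all genes 16.6%). Transcripts of 2 to 8 introns, chosen after seeing the data, gave retained shares of 26.0%, 25.8%, 30.3% and 27.1% in the 4 mouse lists. Tracts of at least 8 adenines gave 11.0% in dendrites (all contigs 12.4%), 25.7% in somas (25.1%) and 10.4% in BAT cells (11.5%), so that soma members stood slightly above all contigs and not below. The cause of these moves was not tested beyond the fewer introns that each minimum leaves. Introns of few reads limit every count of genes.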
